A study of Mus musculus with 2 samples.

Results

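Interferon-inducible GTPases are proteins that cells make in response to interferon and that bind and hydrolyse GTP to act on membranes, and 10 of their genes are described here: Gbp2, Gbp3, Gbp4, Gbp7, Irgm1, Irgm2, Igtp, Iigp1, Tgtp1 and Tgtp2. They were taken by gene name from a deposited table of 30491 genes, where these 10 have 34 transcripts, and the FPKM of a gene is the sum over its transcripts. FPKM scales fragments to transcript length and to library size, so levels can be compared between genes. The cells were fibro/adipogenic progenitors (FAPs), muscle-resident mesenchymal cells able to become fibroblasts or adipocytes. They were sorted from wild-type mice and cultured as primary cells in medium with serum. Group Musclin received 1 µM recombinant mouse Musclin, a secreted peptide, for 24 h, and group vehicle received an equal amount of vehicle for 24 h. Each group has 1 library, so differences are given without a replicate check and without p-values. The vehicle values come from a column headed BSA, which was given to that sample by elimination, and every direction below rests on that assignment.

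The family has a pair of branches. Guanylate-binding proteins (GBPs), encoded by the Gbp genes, are large GTPases that assemble on the membranes of microbes and of the vacuoles that hold them, and they help to open these compartments and to feed bacterial lipopolysaccharide to inflammasomes. Immunity-related GTPases (IRGs) are smaller. The products of Irgm1, Irgm2 and Igtp (Irgm3) are regulators that sit on the cell's own membranes and keep the other IRGs inactive there, while those of Iigp1 (Irga6), Tgtp1 and Tgtp2 (Irgb6) are effectors that load onto the vacuoles of parasites such as Toxoplasma. Their genes are classical targets of interferon gamma through the gamma-activated sequence (GAS) in their promoters, and many also respond to type I interferon through the interferon-stimulated response element (ISRE), to which interferon regulatory factors bind.

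The promoters are shown first because the 10 genes are grouped by their known control by interferon. RefSeq promoter sequences, from 250 bases before to 50 bases after a start site on GRCm38.p6, were found for 8 of the 10 genes, with 9 promoters in all. The ISRE core was searched as GAAANNGAAA on either strand, and GAS as TTCNNNGAA, which reads alike on both strands. No GAS overlaps an ISRE core in the windows shown here. The windows below run from base -110 to base -11 before the start site, 5′ to 3′ on the strand of the gene, and capitals mark the letters of an ISRE core or a GAS. They lie at chr3:142620553-142620652 (Gbp2, plus strand), chr3:142559934-142560033 (Gbp3, plus), chr3:142530226-142530325 (Gbp7, plus), chr11:48871431-48871530 (Irgm1, minus), chr11:58214867-58214966 (Irgm2, plus), chr11:58199446-58199545 (Igtp, plus), chr11:48992257-48992356 (Tgtp1, minus) and chr11:49064223-49064322 (Tgtp2, minus).
Gbp2: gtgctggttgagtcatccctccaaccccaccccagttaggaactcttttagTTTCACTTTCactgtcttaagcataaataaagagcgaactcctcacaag
Gbp3: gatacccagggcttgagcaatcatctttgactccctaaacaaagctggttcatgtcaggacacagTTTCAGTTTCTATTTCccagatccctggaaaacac
Gbp7: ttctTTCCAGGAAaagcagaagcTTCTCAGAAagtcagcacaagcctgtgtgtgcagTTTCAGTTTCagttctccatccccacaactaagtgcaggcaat
Irgm1: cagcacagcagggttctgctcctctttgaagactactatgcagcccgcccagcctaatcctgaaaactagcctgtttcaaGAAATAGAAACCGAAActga
Irgm2: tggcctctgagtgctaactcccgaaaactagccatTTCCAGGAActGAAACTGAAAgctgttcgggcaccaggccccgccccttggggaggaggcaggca
Igtp: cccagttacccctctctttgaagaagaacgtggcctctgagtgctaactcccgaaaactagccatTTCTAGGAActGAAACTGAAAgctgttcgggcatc
Tgtp1: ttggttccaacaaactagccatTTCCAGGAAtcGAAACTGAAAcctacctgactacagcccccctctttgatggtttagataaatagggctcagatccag
Tgtp2: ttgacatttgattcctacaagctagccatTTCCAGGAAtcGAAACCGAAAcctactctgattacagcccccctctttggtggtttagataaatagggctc

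An ISRE core stood before the start site of all 8 genes with a promoter sequence, and a GAS in 5 of them, Gbp7, Irgm2, Igtp, Tgtp1 and Tgtp2. Of 32851 mouse promoters of the same length, 3.44% hold an ISRE core, 8.3% a GAS and 0.454% both. An ISRE core is not particular to these genes. Among relatives with a promoter sequence, it was present in 2 of 2 other Gbp genes, Gbp2b and Gbp5, and in 3 of 6 other IRG loci. Of 11 genes known as type I interferon targets with a promoter sequence, 5 held it. The second promoter of Gbp3, which starts further into the gene, holds neither. Gbp3 and Irgm1 each have a pair of overlapping ISRE cores, at -45 and -39 in Gbp3 and at -30 and -24 in Irgm1, and neither holds a GAS in this window. In Irgm2, Igtp, Tgtp1 and Tgtp2 the GAS ends 2 bases before the ISRE core, whereas in Gbp7 the nearer GAS is 25 bases from it. That arrangement of a GAS, 2 bases and an ISRE core was looked for after it had been seen in these windows, and it occurs in 5 of the 32851 promoters: those of the 4 genes just named and of Gm12185, an IRG locus that shares exonic sequence with Tgtp1. The windows of Irgm2 and Igtp are nearly alike in letters around this arrangement, as are those of Tgtp1 and Tgtp2. The 4 genes are therefore not 4 independent occurrences of it. A match is a description of the letters and shows no binding.

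**Figure D1:**
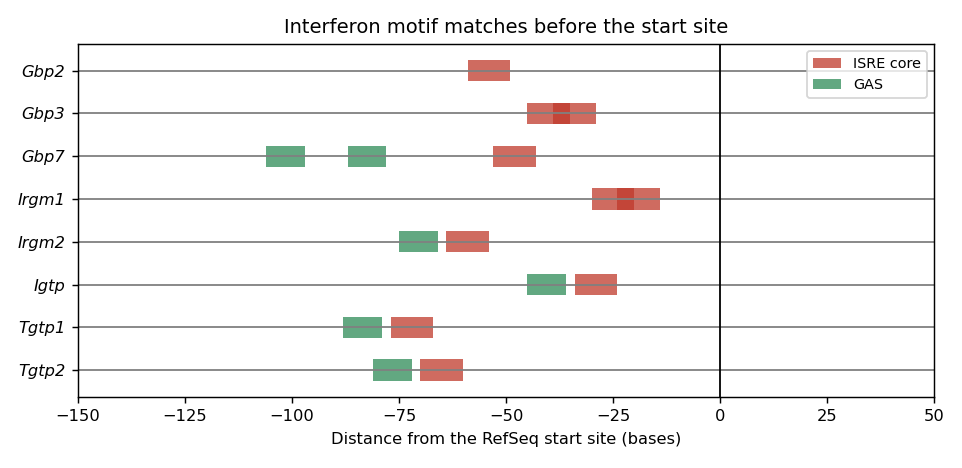
Matches to the ISRE core (red) and to GAS (green) in the promoters of 8 GTPase genes, by distance in bases from the RefSeq start site at 0. Darker red marks overlapping cores, and 4 genes show a GAS and an ISRE core 2 bases apart.

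Of the 10 genes, 8 had at least 1 FPKM in a library, and 6 of these 8 were higher with Musclin by 2-fold or more, none lower by as much: Gbp2, Gbp3, Irgm1, Irgm2, Igtp and Iigp1. Among the 12884 genes of the table that had 1 FPKM or more in a library, 1.71% were 2-fold or more higher and 1.52% were 2-fold or more lower. Log2 ratios are Musclin over vehicle and were taken after adding a pseudocount of 1 FPKM, and their median was 1.22 over the 8 genes and 1.16 over all 10, against -0.02 over the 12884 genes, whose 5th to 95th percentile ran from -0.59 to 0.62. Summed over the 10 genes, the level was 136 FPKM in the Musclin library and 41.2 FPKM in the vehicle library. That sum rests on 8046 fragment equivalents with Musclin and 2507 with vehicle, units of 298 aligned bases worked out from the deposited values, and the ratio of aligned bases was 3.24 (95% exact Clopper-Pearson interval 3.10 to 3.39). Gene by gene, the interval lay above 1 in each of the 8 at 1 FPKM, beside 26.6% of the 12884 genes, and Tgtp2 is among the 8 through the Musclin library alone. Of the 2 genes under 1 FPKM, it lay above 1 for Gbp4 and included 1 for Tgtp1. Intervals cover counting error only. In bulk RNA, more cells with a transcript and more of it per cell cannot be told apart.

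Among the GBP genes, Gbp2 and Gbp3 were 2-fold or more higher, Gbp7 was not, and Gbp4 was below 1 FPKM and was not called. Gbp2 (ENSMUSG00000028270, chromosome 3, 142620602 to 142638008, GRCm38), whose product is lipid-anchored, was at 34.4 FPKM in Musclin cells and 7.73 FPKM in vehicle cells. Its log2 ratio was 2.02 and its aligned-base ratio 4.45 (4.01 to 4.95). Gbp3 (ENSMUSG00000028268, 142560026 to 142573209 on the same chromosome) was at 18.9 FPKM in Musclin cells and 2.60 FPKM in vehicle cells. Its log2 ratio was 2.47 and its aligned-base ratio 7.21 (6.06 to 8.57), and by log2 ratio it ranked 20th from the top among the 12884 genes. Gbp7 (ENSMUSG00000040253, 142530342 to 142550149), also on chromosome 3, was at 3.68 FPKM in Musclin cells and 2.28 FPKM in vehicle cells. Its log2 ratio was 0.52 and its aligned-base ratio 1.75 (1.48 to 2.07), an interval that lies below those of Gbp2 and Gbp3. Gbp4 (ENSMUSG00000079363, chromosome 5, 105115767 to 105139586) stayed under 1 FPKM, at 0.349 FPKM in Musclin cells and 0.0559 FPKM in vehicle cells, which is 17.4 fragment equivalents with Musclin against 5.75 with vehicle. Its aligned-base ratio was 3.05 (1.08 to 8.86).

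All 3 regulatory IRG genes were 2-fold or more higher, by nearly the same factor. Irgm1 (ENSMUSG00000046879, chromosome 11, 48861968 to 48871683), a regulator found on Golgi membranes and mitochondria, was at 32.5 FPKM in Musclin cells and 12.9 FPKM in vehicle cells. Irgm2 (ENSMUSG00000069874, chromosome 11, 58215008 to 58222782), also a Golgi-associated regulator, was at 12.7 FPKM in Musclin cells and 5.09 FPKM in vehicle cells. Igtp (ENSMUSG00000078853, 58199556 to 58207591), the neighbour of Irgm2, whose product resides on the endoplasmic reticulum and lipid droplets, was at 10.5 FPKM in Musclin cells and 4.18 FPKM in vehicle cells. Aligned-base ratios were 2.51 (2.29 to 2.75) for Irgm1, 2.48 (2.21 to 2.80) for Irgm2 and 2.52 (2.12 to 2.99) for Igtp, so that the 3 could not be told apart at this depth. On the log2 scale with a pseudocount they were 1.27, 1.17 and 1.15. Exons annotated to Igtp and Irgm2 in GENCODE vM21 overlap over 162 bases on the same strand, although the spans given above do not overlap.

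Of the effector IRG genes, Iigp1 was abundant and the Tgtp pair was near the limit of measurement. Iigp1 (ENSMUSG00000054072, chromosome 18, 60376027 to 60392634) was at 21.6 FPKM in Musclin cells and 5.85 FPKM in vehicle cells, with a log2 ratio of 1.72 and a ratio of aligned bases of 3.59 (3.21 to 4.03). Its interval lies above those of the 3 regulators. Tgtp2 (ENSMUSG00000078921, chromosome 11, 49057194 to 49064206) was at 1.24 FPKM in Musclin cells and 0.346 FPKM in vehicle cells, and it passed 1 FPKM in the Musclin library alone. Its aligned-base ratio was 3.77 (2.26 to 6.32). Tgtp1 (ENSMUSG00000078922, 48985327 to 48994172) was at 0.406 FPKM in Musclin cells and 0.240 FPKM in vehicle cells, with an aligned-base ratio of 1.69 whose interval (0.893 to 3.55) included 1. Leading transcripts of Tgtp1 and Tgtp2 are 99.8% identical over 2811 aligned positions, so the split of reads between them is uncertain. Summed as 1 locus, they were at 1.65 FPKM in Musclin cells and 0.586 FPKM in vehicle cells, an aligned-base ratio of 2.88 (1.96 to 4.35) from 103 fragment equivalents with Musclin against 36.0 with vehicle.

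Sharing of reads with paralogs was small for the leading transcripts of the other members. The share of all 149-base words of a gene's leading transcript, 149 bases being 1 read, that also occur in an annotated transcript of another gene was 74.2% in Tgtp1 and 71.8% in Tgtp2. It was 8.95% in Gbp7, through the processed pseudogene Gm43802 on the same strand, and 0.907% in Igtp, through Irgm2. None of the words of the leading transcripts of Gbp2, Gbp3, Gbp4, Irgm1, Irgm2 or Iigp1 was shared, although Gbp2 and its silent paralog Gbp2b are 82.0% identical over 1815 aligned positions and Gbp3 and Gbp7 78.7% over 1844. Other transcripts of these genes were not searched. For Gbp4 these include a 4538-base transcript with 13.1 fragment equivalents with Musclin and 5.75 with vehicle. Exons annotated to Gbp4 overlap those of Gbp8 over 61 bases and those of Gbp9 over 60 bases on the same strand. GENCODE vM21 transcripts were searched, and copies outside annotated transcripts were not.

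Gbp3 changed place in the order of levels between the libraries. It lay above Irgm2 and Igtp with Musclin and below both with vehicle. In the Musclin library Gbp2 and Irgm1 came first, and their 95% Poisson counting intervals (32.9 to 36.0 FPKM and 30.9 to 34.1 FPKM) overlapped. They were followed by Iigp1, Gbp3, Irgm2, Igtp, Gbp7 and Tgtp2, each with an interval below that of the gene before it, and then by Tgtp1 and Gbp4, whose intervals overlapped. In the vehicle library Irgm1 led alone, with 11.9 to 13.9 FPKM, followed by Gbp2 with 7.02 to 8.49 FPKM. Iigp1, Irgm2 and Igtp came next and each overlapped its neighbour, then Gbp3 and Gbp7, which overlapped, and last Tgtp2, Tgtp1 and Gbp4. Gbp3 made up 13.9% of the summed FPKM of the 10 genes with Musclin and 6.29% with vehicle, whereas Irgm1 made up 23.8% with Musclin and 31.2% with vehicle.

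**Figure D2:**
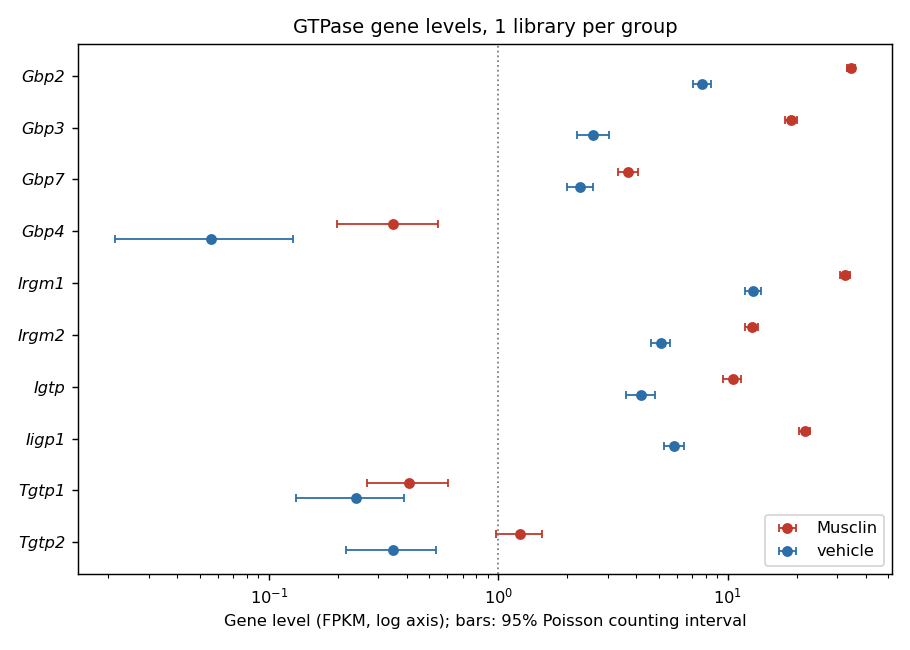
Gene level in FPKM on a log axis in the Musclin library (red) and the vehicle library (blue), 1 library per group, with 95% Poisson counting intervals and a dotted line at 1 FPKM. Both Gbp4 points lie below 1 FPKM, and the intervals of Tgtp1 overlap between the libraries.

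Within several genes the transcripts differed in ratio. Iigp1 has 3 coding transcripts that reached 1 FPKM. ENSMUST00000066912, with 2 exons and 2927 bases, was at 13.4 FPKM in Musclin cells and 1.54 FPKM in vehicle cells. ENSMUST00000032473, with 3 exons and 3121 bases, was at 5.58 FPKM in Musclin cells and 3.69 FPKM in vehicle cells. The other transcript, ENSMUST00000237185, also with 2 exons and 2421 bases long, was at 2.03 FPKM in Musclin cells and 0.519 FPKM in vehicle cells. ENSMUST00000066912 held 62.2% of the gene's FPKM with Musclin and 26.3% with vehicle, and the 3-exon transcript 25.8% with Musclin and 63.2% with vehicle. In Gbp3, ENSMUST00000106222 was at 13.3 FPKM in Musclin cells and 1.28 FPKM in vehicle cells, and ENSMUST00000106221 at 4.80 FPKM in Musclin cells and 1.23 FPKM in vehicle cells. Irgm2 showed a smaller difference of this kind, with 9.15 FPKM with Musclin against 2.89 FPKM with vehicle for ENSMUST00000108836 and 3.54 FPKM with Musclin against 2.20 FPKM with vehicle for ENSMUST00000209079. Transcripts of Irgm1 kept similar shares, since ENSMUST00000049519 held 74.8% of the gene's FPKM with Musclin and 77.8% with vehicle. These transcripts overlap, so their separate levels depend on how the authors' software assigned reads that more than 1 transcript could give.

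In the authors' deposited table, 9 of the 34 transcripts are marked significant, all of them higher with Musclin, and they belong to 6 genes: Gbp2, Gbp3, Irgm1, Irgm2, Igtp and Iigp1. Of all 88702 transcripts in the authors' deposited table, 1.69% are marked as higher. The deposited q-value of the leading transcript is 4.67e-22 for Gbp2 and 1.75e-44 for Gbp3, in the authors' deposited table. For the 3-exon transcript of Iigp1 and for ENSMUST00000209079 of Irgm2, which are not marked, the authors' deposited table gives folds of 1.51 and 1.61. The sources used here do not give the test behind these q-values, and with 1 library per group they compare the libraries, not the conditions. Transcripts of Gbp4, Gbp7, Tgtp1 and Tgtp2 carry no mark, which does not mean that their levels were alike. For the leading transcripts of Gbp7, Tgtp1 and Tgtp2 the authors' deposited table gives folds of 1.92, 1.69 and 3.80.

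**Figure D3:**
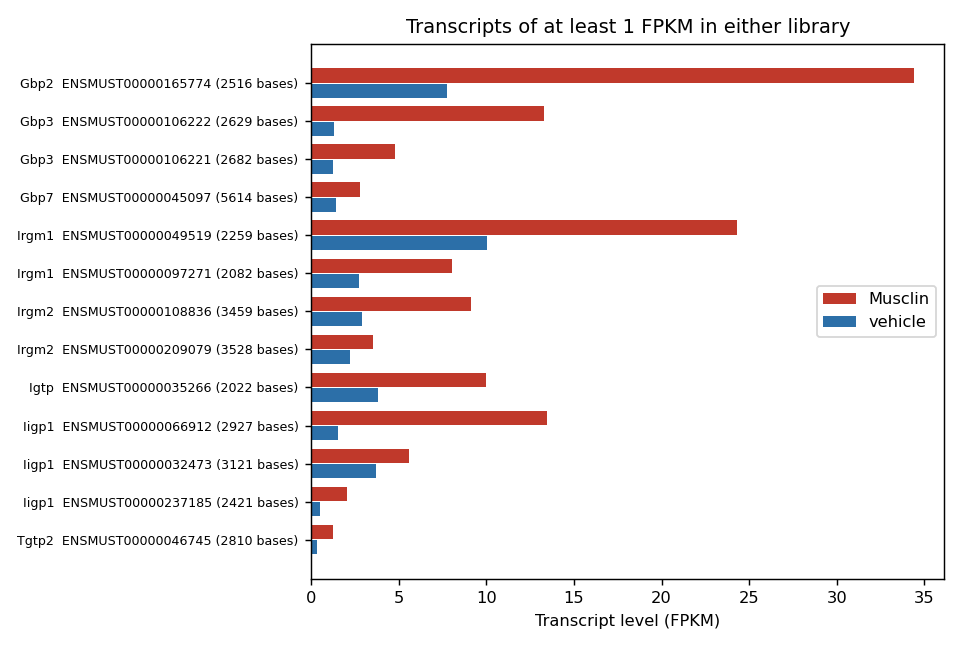
Level in FPKM of the transcripts of the described genes that reached 1 FPKM in a library, Musclin (red) above vehicle (blue), with the transcript length in bases beside each name. The leading Iigp1 transcript is at 13.4 FPKM in Musclin cells and 1.54 FPKM in vehicle cells, while the 3-exon transcript is at 5.58 FPKM in Musclin cells and 3.69 FPKM in vehicle cells.

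Further members of both branches were lower in level than the leading genes. Of 7 other Gbp genes in the table, 3 had at least 1 FPKM, none was 2-fold higher or lower on the FPKM plus 1 scale, and their median log2 ratio was 0.63. Gbp5 and Gbp9 passed 1 FPKM in the Musclin library alone. Gbp5, which promotes inflammasome activation, was at 1.63 FPKM in Musclin cells and 0.544 FPKM in vehicle cells, an aligned-base ratio of 2.92 (2.02 to 4.33). Gbp9 was at 2.01 FPKM in Musclin cells and 0.943 FPKM in vehicle cells, an aligned-base ratio of 2.22 (1.75 to 2.83), and Gbp6 at 3.63 FPKM in Musclin cells and 2.11 FPKM in vehicle cells. The Gbp9 transcript ENSMUST00000196820, which is not annotated as coding, was at 1.76 FPKM with Musclin against 0.553 FPKM with vehicle. Its coding transcript was at 0.255 FPKM with Musclin against 0.389 FPKM with vehicle. In Gbp6 a transcript not annotated as coding held 69.0% of the FPKM with Musclin and 72.3% with vehicle. Gbp10 was at 0.607 FPKM with Musclin against 0.114 FPKM with vehicle. Gbp10 and Gbp6 share 63.3% and 78.4% of their read-length words with the annotated readthrough gene Gm43302, so their own levels are uncertain. Gbp8 (0.104 FPKM with Musclin against 0.0803 FPKM with vehicle) and Gbp11 (0.0743 FPKM with Musclin against 0.0954 FPKM with vehicle) were under the floor, and Gbp2b was listed at 0 in both libraries.

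Of 9 other IRG loci in the table, 5 had at least 1 FPKM and 2 of these were 2-fold or more higher. The median log2 ratio of the 5 was 0.59. Both lie on chromosome 18, as does Iigp1, and both passed the floor in the Musclin library alone, where they are higher. Gm4951 was at 4.003 FPKM in Musclin cells and 0.788 FPKM in vehicle cells, and F830016B08Rik at 2.21 FPKM in Musclin cells and 0.298 FPKM in vehicle cells, with aligned-base ratios of 5.08 (3.73 to 7.15) and 7.44 (4.81 to 12.3). Another locus there, Gm4841, was at 0.348 FPKM with Musclin against 0.0489 FPKM with vehicle. On chromosome 11, 9930111J21Rik1 (2.61 FPKM with Musclin against 2.39 FPKM with vehicle) and 9930111J21Rik2 (3.98 FPKM with Musclin against 3.67 FPKM with vehicle) had aligned-base ratios of 1.09 and 1.10 with intervals that included 1. These last loci share 57.8% and 36.2% of their read-length words with other genes. Gm12250 was at 0.820 FPKM with Musclin against 0.190 FPKM with vehicle, Gm12185 at 0.0562 FPKM with Musclin and listed at 0 with vehicle, and Gm5431 at 0.240 FPKM with Musclin against 0.235 FPKM with vehicle. Irgq, an IRG-like gene on chromosome 7, was at 8.62 FPKM with Musclin against 5.37 FPKM with vehicle, and its ratio of aligned bases was 1.61 (1.46 to 1.76).

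**Figure D4:**
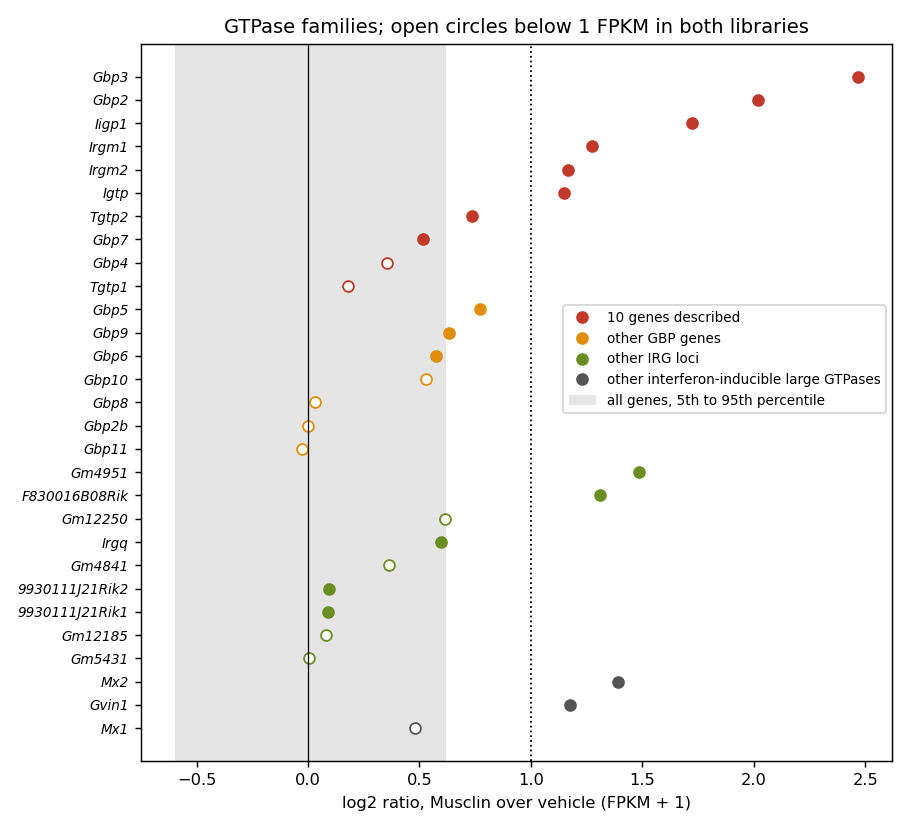
Log2 ratio of Musclin over vehicle on FPKM plus 1 for the 10 described genes (red) and other GTPase genes, with open circles for genes under 1 FPKM in both libraries, a dotted line at 2-fold and a grey band for the 5th to 95th percentile of all genes, -0.59 to 0.62. Gbp3 lies farthest to the right at 2.47.

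Related GTPase families were read for comparison. Of 3 other interferon-inducible large GTPase genes, Mx2, an antiviral dynamin-like GTPase gene, was at 2.47 FPKM in Musclin cells and 0.321 FPKM in vehicle cells, at the floor in the Musclin library alone. Gvin1, which encodes a very large inducible GTPase, was at 9.63 FPKM in Musclin cells and 3.70 FPKM in vehicle cells. Mx1 was at 0.394 FPKM with Musclin and listed at 0 with vehicle. None of 10 dynamin, mitofusin and atlastin genes, membrane GTPases not known for interferon induction, was 2-fold apart on the FPKM plus 1 scale, and their median log2 ratio was -0.06. The low-level dynamin gene Dnm3 was at 1.39 FPKM in Musclin cells and 0.313 FPKM in vehicle cells, with an aligned-base ratio of 2.51 (1.68 to 3.88). Opa1, which encodes a GTPase of mitochondrial inner-membrane fusion, was at 17.3 FPKM with Musclin against 18.8 FPKM with vehicle, and the atlastin gene Atl2 at 13.9 FPKM with Musclin against 16.3 FPKM with vehicle.

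Upstream of the GTPases, the interferon genes found in the deposited table were hardly detected and their receptors were present in both libraries. Of 20 listed interferon genes, 14 were not in the table, so their levels could not be read. None of the 6 found there reached 1 FPKM. Ifng, which encodes interferon gamma, was at 0.127 FPKM in Musclin cells and 0.691 FPKM in vehicle cells, from 3.45 fragment equivalents with Musclin against 18.9 with vehicle, a ratio of 0.184 (0.0302 to 0.542). Ifnb1, the interferon beta gene, Ifna4, Ifna13 and Ifne were listed at 0 in both, and Ifna6 was at 0.0485 FPKM with Musclin and listed at 0 with vehicle. None of 8 receptor and Janus kinase genes at the floor was 2-fold apart, with a median log2 ratio of 0.30. Ifngr2 was at 15.5 FPKM with Musclin against 11.0 FPKM with vehicle, Ifnar1 at 25.9 FPKM with Musclin against 18.9 FPKM with vehicle and Il10rb, a receptor chain for interferon lambda, at 17.6 FPKM with Musclin against 12.4 FPKM with vehicle. Jak1, the kinase shared by these receptors, was at 156 FPKM with Musclin against 203 FPKM with vehicle.

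Transcription factor genes of the interferon pathways were counted in the same way. Of 9 listed transcription factor genes at the floor, 2 were 2-fold or more higher and none lower, and the median log2 ratio of the 9 was 0.45. Stat2, which encodes a partner of IRF9 in type I interferon signalling, was at 25.3 FPKM with Musclin against 9.50 FPKM with vehicle and Irf7, the master regulator of interferon alpha genes, at 19.6 FPKM with Musclin against 2.58 FPKM with vehicle. Irf9, whose product binds the ISRE, was at 22.2 FPKM with Musclin against 12.0 FPKM with vehicle. Irf1, an interferon gamma target that drives Gbp genes, was at 12.5 FPKM in Musclin cells and 12.1 FPKM in vehicle cells, and its aligned-base ratio of 1.07 (0.945 to 1.21) included 1. Of 4 feedback inhibitor genes at the floor, Usp18, which restrains the type I receptor, was 2-fold or more higher at 23.8 FPKM with Musclin against 5.17 FPKM with vehicle, while Socs3 was at 32.0 FPKM with Musclin against 23.1 FPKM with vehicle.

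Other interferon targets were set beside the GTPases by the kind of interferon they are known for, in lists that share genes with earlier ones. Of 12 type I target genes at the floor, 11 were 2-fold or more higher, and the median log2 ratio was 2.25 over the 12 and 2.18 over all 13 listed. Of the 11, 1 passed the floor in the Musclin library alone. Ifit1, an RNA-binding antiviral gene, was at 32.3 FPKM with Musclin against 3.64 FPKM with vehicle. Of 7 targets known for interferon gamma at the floor, 4 were 2-fold or more higher, and the median log2 ratio was 1.22 over the 7 and 0.44 over all 13 listed. All 4, Cxcl9, Cxcl10, Serpina3g and Nos2, passed the floor in the Musclin library alone, so the floor admitted them through the library where they are higher. The other 3 were at the floor in both libraries and not 2-fold apart, with log2 ratios from 0.44 to 0.70. The chemokine gene Cxcl10 was at 6.26 FPKM with Musclin against 0.761 FPKM with vehicle. Ciita, the interferon gamma-induced master regulator of MHC class II, was at 0.0155 FPKM in Musclin cells and 0.00846 FPKM in vehicle cells, about 1 fragment equivalent in each. These lists were written with earlier results of the data known, and the difference between them was not tested.

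Partner genes of the GTPases were counted in the same way. Of 13 genes of ATG8 conjugation, ubiquitin ligases and adaptors that help GBPs and IRGs to find vacuoles, none was 2-fold or more higher and 1 was 2-fold or more lower, with a median log2 ratio of -0.15. The lower gene was Sqstm1, which encodes the ubiquitin adaptor p62, at 238 FPKM in Musclin cells and 615 FPKM in vehicle cells. Atg7, an activating enzyme of the conjugation system, was at 16.9 FPKM with Musclin against 22.1 FPKM with vehicle, and Gabarapl1, one of the ATG8 genes, at 34.0 FPKM with Musclin against 42.5 FPKM with vehicle. Of 5 inflammasome genes at the floor, none was 2-fold apart on the FPKM plus 1 scale, with a median log2 ratio of 0.29. Nlrp3, an inflammasome sensor gene, lay just under it at 1.195 FPKM in Musclin cells and 0.123 FPKM in vehicle cells, and its aligned-base ratio was 7.56 (4.10 to 16.0). Casp4, the lipopolysaccharide-sensing caspase that acts downstream of GBPs, was at 15.2 FPKM with Musclin against 9.13 FPKM with vehicle.

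**Figure D5:**
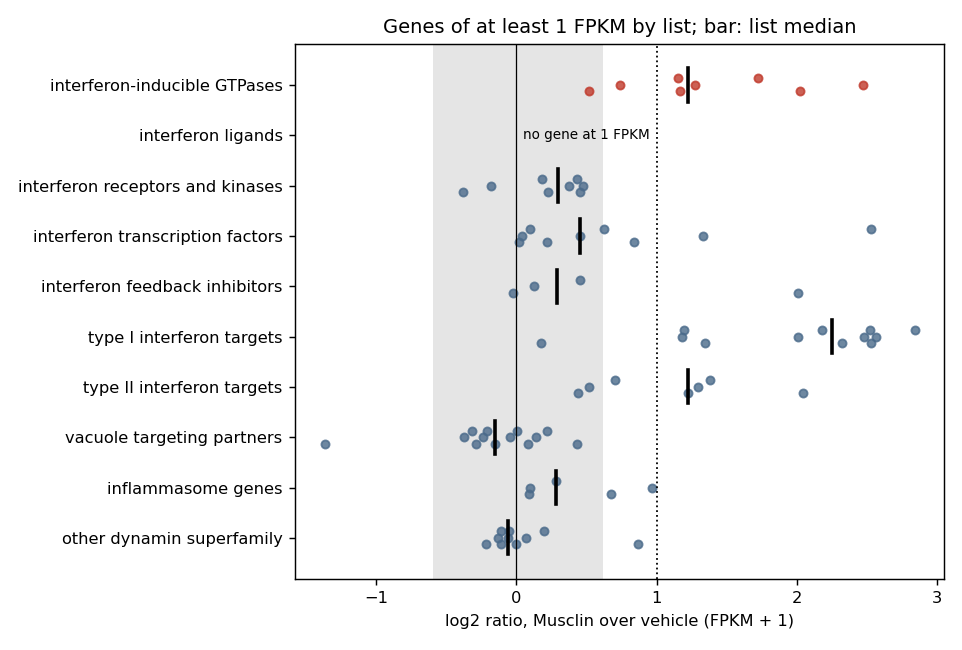
Log2 ratio of Musclin over vehicle on FPKM plus 1 for genes of at least 1 FPKM, by list, with the list median as a black bar, a dotted line at 2-fold and a grey band for the 5th to 95th percentile of all genes. The median of the described GTPases is 1.22 and that of type I interferon targets 2.25.

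With 2 libraries, likeness of pattern can be read as nearness of the log2 ratio alone. The 5 genes outside the GTPase lists, with at least 5 FPKM in a library, whose log2 ratio was nearest to the median of 1.22 were Plau, Rnf213, Creld2, Gpr153 and Sumo2, all within 0.0087 of it. Plau, the urokinase gene, was at 58.9 FPKM in Musclin cells and 24.8 FPKM in vehicle cells, and Rnf213, which encodes a giant ubiquitin ligase, at 31.0 FPKM with Musclin against 12.7 FPKM with vehicle.

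The libraries were similar in depth, with 6.69 Gb (gigabases) of aligned sequence, or 22456808 fragment equivalents, with Musclin and 6.76 Gb, or 22677186, with vehicle. All 6 FAP markers were present in both, and 1 of them was 2-fold or more higher. That was Dcn, the decorin gene, at 181 FPKM in Musclin cells and 64.8 FPKM in vehicle cells. Cd34 was at 29.7 FPKM with Musclin against 14.5 FPKM with vehicle, an aligned-base ratio of 2.08, and Thy1 at 83.4 FPKM with Musclin against 106 FPKM with vehicle, a ratio of 0.779. Ly6a was at 284 FPKM with Musclin against 224 FPKM with vehicle, and Pdgfra, the defining marker, at 87.2 FPKM with Musclin against 79.9 FPKM with vehicle. Of 13 leukocyte markers in the table, 4 reached 1 FPKM, and their summed level over the 13 was 15.9 FPKM in Musclin cells and 19.6 FPKM in vehicle cells. Ptprc, which encodes the leukocyte antigen CD45, was at 0.383 FPKM in Musclin cells and 0.644 FPKM in vehicle cells, and Cd79a, a B cell marker, was listed at 0 in both. The highest of them, Lyz2, was at 8.46 FPKM with Musclin against 14.1 FPKM with vehicle, and Cd68, a macrophage marker, at 3.03 FPKM with Musclin against 2.86 FPKM with vehicle. Csf1r, which encodes the macrophage growth factor receptor, was at 1.61 FPKM in Musclin cells and 0.532 FPKM in vehicle cells, an aligned-base ratio of 3.09 (2.29 to 4.31). S100a8, a neutrophil marker, was at 1.495 FPKM with Musclin and listed at 0 with vehicle, and the part of such cells in the GTPase levels was not tested. Endothelial markers summed to 3.08 FPKM in Musclin cells and 5.44 FPKM in vehicle cells, and 3 myogenic markers to 0.535 FPKM in Musclin cells and 1.23 FPKM in vehicle cells.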

How the data were processed

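RNA of FAPs treated with Musclin or with vehicle was compared, 1 library per group. The authors deposited 1 FPKM value per transcript and condition, per the file headers, and also a fold change, which is the ratio of both values, its log2, and a p-value and q-value per transcript. Per the submitters' processing notes the authors used StringTie, DESeq2 and edgeR, without stated roles. The aligner, the build and any pooling of cultures are not stated in the sources used here. All 34 member transcripts have the same ends in GENCODE vM21, so coordinates are printed as GRCm38.

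FPKM were summed per gene with Python 3.11.15 and pandas 2.3.3. The floor was 1 FPKM in at least 1 of the libraries, and log2 ratios used a pseudocount of 1, which understates differences of low genes. Higher and lower mean 2-fold on that scale. Aligned bases were recovered from the steps of FPKM times transcript length in single-exon genes with 1 transcript: 69.6% of 5743 values with Musclin and 68.5% of 5675 with vehicle were whole numbers of bases within 0.1. Totals of 149 and 298 bases were the commonest and stand for 1 read and 1 pair of reads. Clopper-Pearson intervals (95%) on fragment equivalents used scipy 1.17.1.

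The members and gene lists were chosen with earlier results of these data known. Of the listed transcription factor genes, 1 is not reported here and was left out of the count and median of its list. Named are the 10 genes, the other GTPase genes, the 5 genes nearest in ratio, and from each further list up to 4 genes with the largest absolute log2 ratio among those of at least 5 FPKM. Interferon ligands, Irf1, Ciita, Nlrp3, Dnm3, 3 targets of interferon gamma, Pdgfra and cell markers under that level are named as well, chosen after their values were seen, as are the ratios of single transcripts. Alternatives were other pseudocounts, floors and scalings, coding or leading transcripts alone, aligned bases, and the Tgtp pair as 1 locus.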

Additional observations from a re-analysis of the deposited data

How the results depend on the processing

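Log2 ratios of the members were recomputed with other scalings, coding or leading transcripts alone, and aligned bases. Of these 50 values, 43 stayed within the counting interval of the reported value. All 50 were above 0, which is no independent support, since they come from the same libraries. Other pseudocounts are not among the 50. With a pseudocount of 5 every member but Tgtp1 moved outside its interval, and with 0.1 Gbp3, Gbp4 and Tgtp2 did. The scalings changed the ratio between the libraries too little to turn the sign of any member. The count of members 2-fold or more higher, reported as 6 of 8, was 7 of 8 with a pseudocount of 0.1 and with aligned bases. It was 7 of 9 with gene FPKM rescaled to a fixed sum, which brings Tgtp1 to the floor. The member added to the count in these settings was Tgtp2. Tgtp1 and Tgtp2 reached the floor there through the Musclin library alone, where they are higher, so these counts are no firmer support. With a pseudocount of 5 the count was 4 of 8, where Igtp (0.75) and Irgm2 (0.81) lay under 2-fold. The median log2 ratio of the members, reported as 1.22, was 1.46 with a pseudocount of 0.1, 0.94 with a pseudocount of 5, 1.50 with a floor of 5 FPKM, which leaves 6 members, and 1.59 from aligned bases. The ratio of summed FPKM, reported as 3.30, was 3.73 from the leading transcript of each gene alone. The count of all genes 2-fold or more higher was reported as 220 of the 12884 at the floor. It was 400 of 12884 with a pseudocount of 0.1 and 97 of 12884 with a pseudocount of 5. It was 402 of 15309 with gene FPKM rescaled to a fixed sum, 369 of 12531 from leading transcripts alone and 418 of 12879 from aligned bases. Rescaling to the fixed sum raised both libraries, whose gene FPKM summed to 374345 with Musclin and 370809 with vehicle. The pseudocount and the floor stayed at 1, so this setting acts mainly as a smaller pseudocount and floor. Iigp1 had a log2 ratio of 2.51 from its leading transcript alone, against 1.72 for the gene. Depth limits Gbp4, Tgtp1 and Tgtp2 most. No paired analysis was possible because each group has 1 library.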
